A study of Mus musculus with 8 samples.

Results

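RNA levels are described for 9 genes of gonadotropin receptor and cyclic AMP signalling in cultured mouse ovarian follicular cells, out of 24232 genes measured. The genes were chosen by name, with earlier results of these data known. Their mouse Entrez gene IDs were found in the row names of the deposited expression table, and 9 of 9 genes were on the array. They encode the receptors for FSH (Fshr), LH (Lhcgr), the peptide PACAP (Adcyap1r1) and prolactin (Prlr), the protein kinase A regulatory subunits RIα (Prkar1a) and RIIβ (Prkar2b), the phosphodiesterases PDE4B (Pde4b) and PDE4D (Pde4d), and the transcription factor CREB (Creb1).

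In granulosa cells, the somatic cells that surround the oocyte, FSH and LH bind receptors coupled to the stimulatory G protein, which turns on adenylyl cyclase and raises cyclic AMP. Cyclic AMP binds the regulatory subunits of protein kinase A and frees its catalytic subunits, which phosphorylate CREB and other proteins, while phosphodiesterases break the messenger down. The prolactin receptor works by another route, the kinase JAK2 and the STAT5 factors, and is an ovarian receptor for luteal support.

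The cells came from preantral follicles of female Swiss mice 8 weeks old, in pools of 5 animals, and were kept 9 days in culture. From day 7 of culture the medium held charcoal-treated serum and no androstenedione, and the protocols used here name no added gonadotropin. All wells were transfected with 12 pmol of siRNA and a DsRed reporter plasmid and then grown for 24 h, and E2 (17β-estradiol, 100 nM) or vehicle was added 10 h before lysis. The labels place these hours within the 24 h of growth, whereas the text of the study places them after it. Crossing both siRNAs (control or FOXL2) with both treatments (vehicle or E2) made 4 groups of 2 arrays. FOXL2 is a forkhead transcription factor of granulosa cells, and the comparisons asked how its siRNA, E2, or both altered these genes.

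Each array was an Agilent one-colour array. A level is the log2 of the spot signal after scaling each array to its 75th percentile, averaged over the probes of a gene, and a change is a difference of such levels. By the call of the scanner software, 51.3 to 55.6% of the probes of an array stood well above background, and replicate arrays correlated at 0.989 to 0.992 across genes. Changes were tested with limma over the 15645 genes whose median scaled signal was at least 10, and a gene was called at an adjusted p (Benjamini-Hochberg) under 0.05. With 2 arrays per group, the number of arrays limits the precision. All 8 arrays lay on 1 slide.

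The probes of the siRNA target gave different answers. The bright Foxl2 probe read 14.46 and 14.01 for control siRNA in vehicle, 13.94 and 13.76 for control siRNA in E2, 14.41 and 14.40 for FOXL2 siRNA in vehicle, and 14.12 and 13.96 for FOXL2 siRNA in E2. This probe carried 99.6% of the gene's signal. Its change over both treatments was 0.18 (adjusted p = 0.364, limma over single probes). The dim probe read 5.48 to 6.04 on the arrays labelled FOXL2 siRNA and 6.36 to 7.01 on the 4 others, a change of -0.97 (adjusted p = 0.0200). The groups are named by label for this reason, and the labels carry every direction given below. By qPCR, for its siRNA experiments with nuclear receptors, the study reports that the FOXL2 siRNA pool lowered Foxl2 mRNA. It also shows a Western blot of FOXL2 protein in cells treated with control or FOXL2 siRNAs.

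Of 10 granulosa marker genes, 8 were well above background on all 8 arrays, and Amh was so on none. Among markers of other cells, 7 of 9 oocyte genes were at background on every array, including Zp1, Zp2 and Zp3, and 1 was above it on all 8. Of 5 macrophage genes 2 were above background on all 8 arrays and 2 on none (Lyz2 and Ptprc), of 5 endothelial genes 2 on all and 2 on none (Cdh5 and Tek), and of 6 theca and interstitial genes 3 on all and 2 on none (Pdgfra and Tcf21). The 4 Sertoli cell genes were all well above background on 8 of 8 arrays.

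The gonadotropin receptor genes gave no signal above background. Fshr, the FSH receptor that defines the granulosa response, had 1 probe, which was well above background on 0 of 8 arrays. Its level was 1.62 and 1.91 for control siRNA in vehicle, 1.62 and 1.50 for control siRNA in E2, 2.20 and 1.58 for FOXL2 siRNA in vehicle, and 1.44 and 1.31 for FOXL2 siRNA in E2. These values lay under the dimmest probes counted as well above background, which stood at 3.49 to 3.90 depending on the array, so they have no order. Lhcgr, the LH receptor that appears late in granulosa differentiation, also had 1 probe and was well above background on 0 of 8 arrays, with levels between 1.49 and 1.94.

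Adcyap1r1, the receptor for PACAP, which also couples to adenylyl cyclase, was at the limit of detection. Its single probe was well above background on 2 of 8 arrays, replicate 2 of control siRNA with vehicle at 4.94 and replicate 1 of FOXL2 siRNA with E2 at 4.33. The other arrays read 1.70 for control siRNA in vehicle, 1.72 and 1.58 for control siRNA in E2, 2.62 and 2.86 for FOXL2 siRNA in vehicle, and 3.17 for FOXL2 siRNA in E2. The replicates of control siRNA in vehicle lay further apart than any group means did, so no fold is given. These 3 receptor genes did not pass the filter on dim genes. When they were tested with no filter, none was called in any of the 7 comparisons, with adjusted p of at least 0.462.

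Prlr was the only one of the 4 receptor genes that was well above background on all 8 arrays. Its level was 10.22 and 10.04 for control siRNA in vehicle, 10.07 and 10.22 for control siRNA in E2, 10.13 and 9.98 for FOXL2 siRNA in vehicle, and 9.95 and 9.59 for FOXL2 siRNA in E2. The last group had the lowest mean. The difference between siRNAs was -0.37 with E2 (95% interval -0.70 to -0.049, adjusted p = 0.227) and -0.078 with vehicle (adjusted p = 0.830), and neither was called. With the replicate number as a block, the difference with E2 was called (adjusted p = 0.0416), as were 2330 of all 15645 genes. Both Prlr probes leaned the same way with E2, at -0.30 and -0.38.

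**Figure D1:**
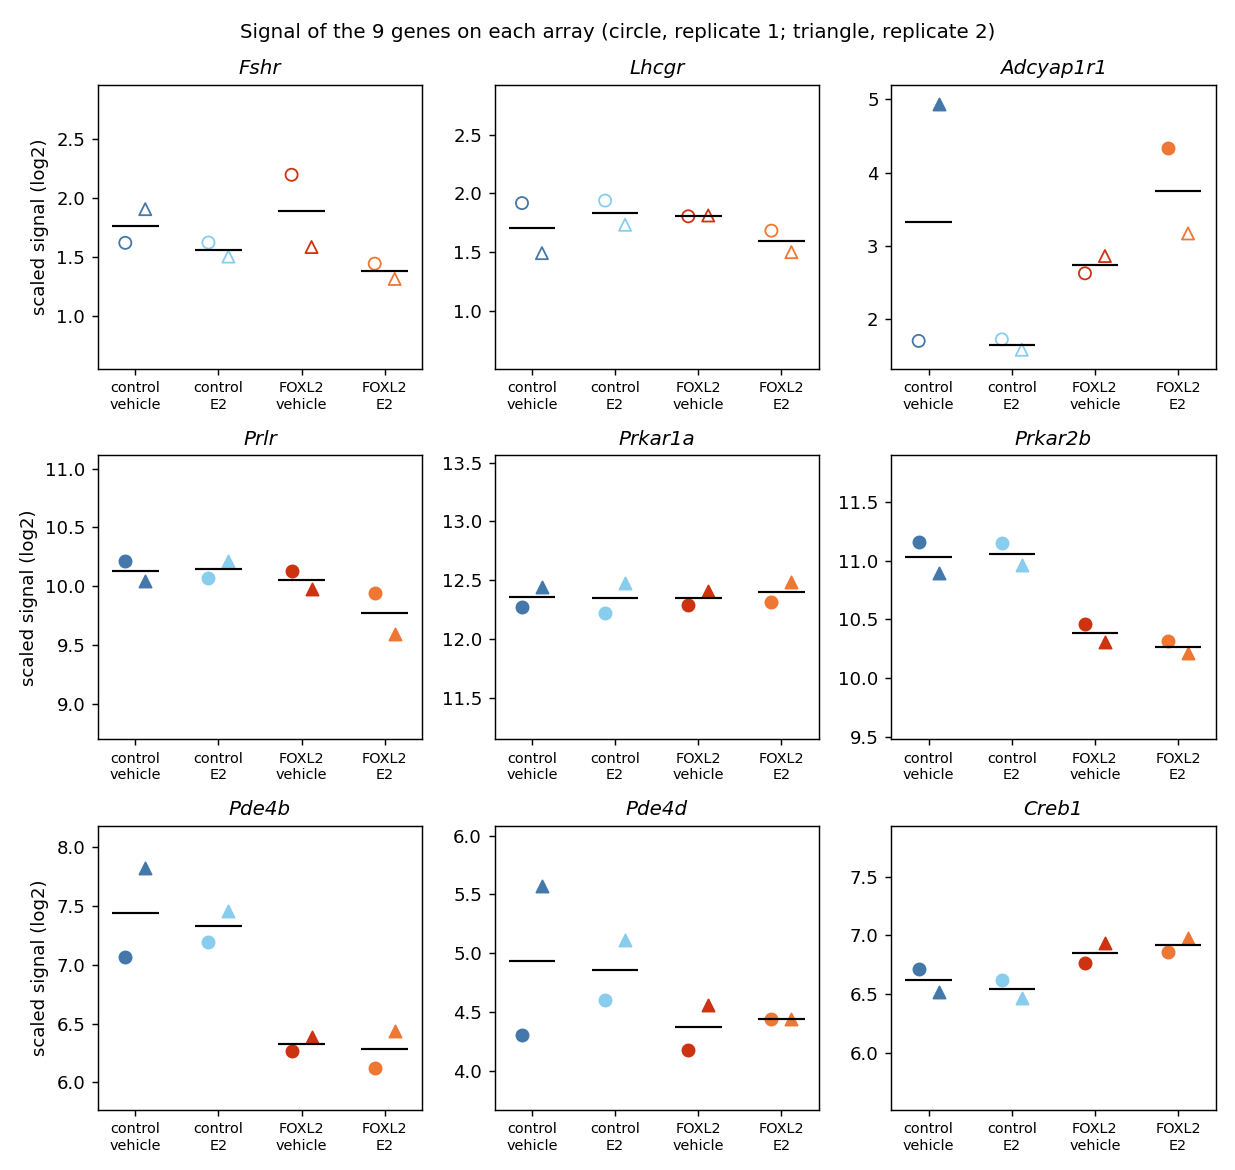
Level of the 9 genes on each array, as log2 scaled signal (vertical axes, each with its own position but at least 2 units high), by siRNA and treatment (horizontal axis). Circles are replicate 1 and triangles replicate 2, filled where a probe of the gene was well above background, and bars are group means. Prkar2b and Pde4b are lower on all 4 FOXL2 siRNA arrays than on any control siRNA array, Creb1 is slightly higher, and Fshr and Lhcgr are open on all 8 arrays.

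The siRNA comparison changed 2 of the 6 genes that could be tested. Over both treatments, Prkar2b and Pde4b fell and the other 4 were not called, against 12.6% of all genes called in that comparison and 6.18% called lower. With vehicle alone Prkar2b and Pde4b were called, against 6.53% of all genes (2.93% lower), and with E2 alone Prkar2b was called, against 4.38% (2.13% lower). A rule that the study used for its E2 targets and its nuclear receptor siRNA targets has no p-value. It asks for a difference of at least 1 that is above 2 times the sum of both SDs. For FOXL2 siRNA the study used another method. Applied here to the FOXL2 siRNA comparisons too, the rule took 0 of the 6 genes with vehicle (2.94% of all genes) and Pde4b alone with E2 (2.35%). It took none for E2 with control siRNA (0.454%) or FOXL2 siRNA (0.217%). The median change of the 6 genes over both treatments was -0.36, beside -0.0026 for all genes tested. The genes were chosen with earlier results of these data known, so neither these counts nor this median tests them as a set. The 3 genes that did not pass the filter are not in these counts. In RNA from whole cultures, fewer cells of a type and less RNA per cell cannot be told apart.

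Prkar2b encodes RIIβ, the regulatory subunit of type II protein kinase A that anchoring proteins tether to membranes and scaffolds, and that is known as a gene induced by FSH in granulosa cells. Its level was 11.16 and 10.90 for control siRNA in vehicle, 11.15 and 10.97 for control siRNA in E2, 10.46 and 10.31 for FOXL2 siRNA in vehicle, and 10.32 and 10.22 for FOXL2 siRNA in E2. The 4 arrays labelled FOXL2 siRNA did not overlap the 4 labelled control siRNA, which was the case for 20.9% of all genes tested (10.7% with FOXL2 siRNA lower). Prkar2b fell by 0.72 over both treatments (SE 0.086, adjusted p = 0.00200), to 60.8% of the control. It fell by 0.64 with vehicle (SE 0.12, adjusted p = 0.0212) and by 0.79 with E2 (SE 0.12, adjusted p = 0.0133).

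In order of group means, Prkar2b stood at 11.06 ± 0.13 (SD, n = 2) for control siRNA in E2, 11.03 ± 0.18 for control siRNA in vehicle, 10.38 ± 0.10 for FOXL2 siRNA in vehicle and 10.27 ± 0.072 for FOXL2 siRNA in E2. Within a siRNA, the arrays of neighbouring groups overlapped. The call over both treatments held when any single array was left out, with a change between -0.78 and -0.65 and an adjusted p of at most 0.0119. The call with vehicle did not hold after replicate 1 of control siRNA with vehicle was left out (-0.51, adjusted p = 0.0909), nor after either FOXL2 siRNA array in vehicle was (-0.72 and -0.57, adjusted p = 0.0634 and 0.137). The call with E2 did not hold after either control siRNA array in E2 was left out (-0.70 and -0.88, adjusted p = 0.104 and 0.0524), nor after the second FOXL2 siRNA array in E2 was (-0.74, adjusted p = 0.0960).

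Prkar2b was read by 3 probes, all to the transcript NM_011158, and all 3 were lower with FOXL2 siRNA. The brightest, A_55_P2055087, carried 90.6% of the gene's signal and fell by 0.70 over both treatments (adjusted p = 0.0033). The other two, A_55_P2122200 and A_66_P112436, fell by 0.89 and 0.91 (adjusted p = 0.0037 and 0.0027). In this test of 31521 single probes, 7.94% were called. Each of the 3 probes was also called with vehicle and with E2 taken alone, where 3.61% and 2.4% of probes were called.

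Prkar1a encodes RIα, the broadly expressed regulatory subunit of type I protein kinase A, and gave no call. Its level was 12.27 and 12.44 for control siRNA in vehicle, 12.22 and 12.47 for control siRNA in E2, 12.29 and 12.41 for FOXL2 siRNA in vehicle, and 12.31 and 12.49 for FOXL2 siRNA in E2. The 4 groups overlapped fully. The difference between siRNAs over both treatments was 0.022 (95% interval -0.17 to 0.22, adjusted p = 0.904), an interval that does not reach the change of Prkar2b. Of its 3 probes, the 2 brighter ones differed by 0.00062 and 0.023, and the dim A_55_P2020781, to the transcript ENSMUST00000106676, by 0.53 (adjusted p = 0.349).

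Pde4b encodes PDE4B, a phosphodiesterase specific for cyclic AMP. Its level was 7.07 and 7.82 for control siRNA in vehicle, 7.20 and 7.46 for control siRNA in E2, 6.26 and 6.39 for FOXL2 siRNA in vehicle, and 6.13 and 6.44 for FOXL2 siRNA in E2. Replicate 2 of control siRNA with vehicle was the highest array, and again the siRNA groups did not overlap. Pde4b fell by 1.08 over both treatments (SE 0.18, adjusted p = 0.00782), to 47.3% of the control. With vehicle it fell by 1.12 (SE 0.26, adjusted p = 0.0442), and with E2 the difference of -1.05 (SE 0.26) missed the threshold (adjusted p = 0.0700), which it passed with the replicate number as a block (adjusted p = 0.000972).

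The fall of Pde4b over both treatments held without any single array, with a change between -1.27 and -0.89 and an adjusted p of at most 0.0375. The call with vehicle was less secure. It was lost without any 1 of 7 arrays, with an adjusted p between 0.0560 and 0.175, and was kept when the first array of control siRNA with vehicle was left out (-1.50, adjusted p = 0.0180). When the second array of that group was left out the value was -0.74 (adjusted p = 0.160). With E2, leaving out either array of control siRNA with vehicle, which is not in that contrast but is in the shared estimate of the spread, gave a call (adjusted p = 0.0267 and 0.0277).

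Of the 4 Pde4b probes, 3 were detected and all 3 were lower with FOXL2 siRNA. A_65_P01319, with 71.6% of the gene's signal, fell by 1.17 over both treatments (adjusted p = 0.0102), and A_52_P423247 fell by 0.89 (adjusted p = 0.0216). A_55_P2107542, designed to the transcript ENSMUST00000106901 and well above background on 7 of 8 arrays, differed by -0.77 (adjusted p = 0.132). The probe A_52_P149801 was well above background on 0 of 8 arrays. With vehicle and with E2 taken alone, no single Pde4b probe was called.

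Pde4d encodes PDE4D, the related enzyme of the same subfamily. Its level was 4.30 and 5.57 for control siRNA in vehicle, 4.60 and 5.11 for control siRNA in E2, 4.18 and 4.56 for FOXL2 siRNA in vehicle, and 4.44 and 4.44 for FOXL2 siRNA in E2. The siRNA groups overlapped, and the array at 5.57 stood apart from its replicate. The difference over both treatments was -0.49 (95% interval -1.20 to 0.22, adjusted p = 0.361). With vehicle it was -0.57 (adjusted p = 0.548), which became 0.067 without replicate 2 of control siRNA with vehicle.

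The Pde4d probes disagreed. A_55_P1986461 was well above background only on replicate 2 of control siRNA with vehicle, at 6.14, beside 1.39 to 2.40 on the 7 other arrays. The 2 probes detected on all 8 arrays, A_55_P2010396 and A_65_P12530, had opposite signs with vehicle, at -0.48 and 0.20 (adjusted p = 0.519 and 0.879). With E2 both were negative, at -0.25 and -0.74, and neither was called.

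Creb1 encodes CREB, the factor that protein kinase A phosphorylates. Its level was 6.72 and 6.52 for control siRNA in vehicle, 6.62 and 6.47 for control siRNA in E2, 6.77 and 6.94 for FOXL2 siRNA in vehicle, and 6.86 and 6.98 for FOXL2 siRNA in E2. All 4 arrays labelled FOXL2 siRNA lay above the 4 others, by a narrow margin, as was the case for 10.1% of all genes. The difference over both treatments was 0.30 (95% interval 0.044 to 0.56) and was not called (adjusted p = 0.127). Its brighter probe, A_52_P517730, differed by 0.37 (adjusted p = 0.0681), and its dim probe, A_55_P2114427, by 0.042 (adjusted p = 0.934).

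**Figure D2:**
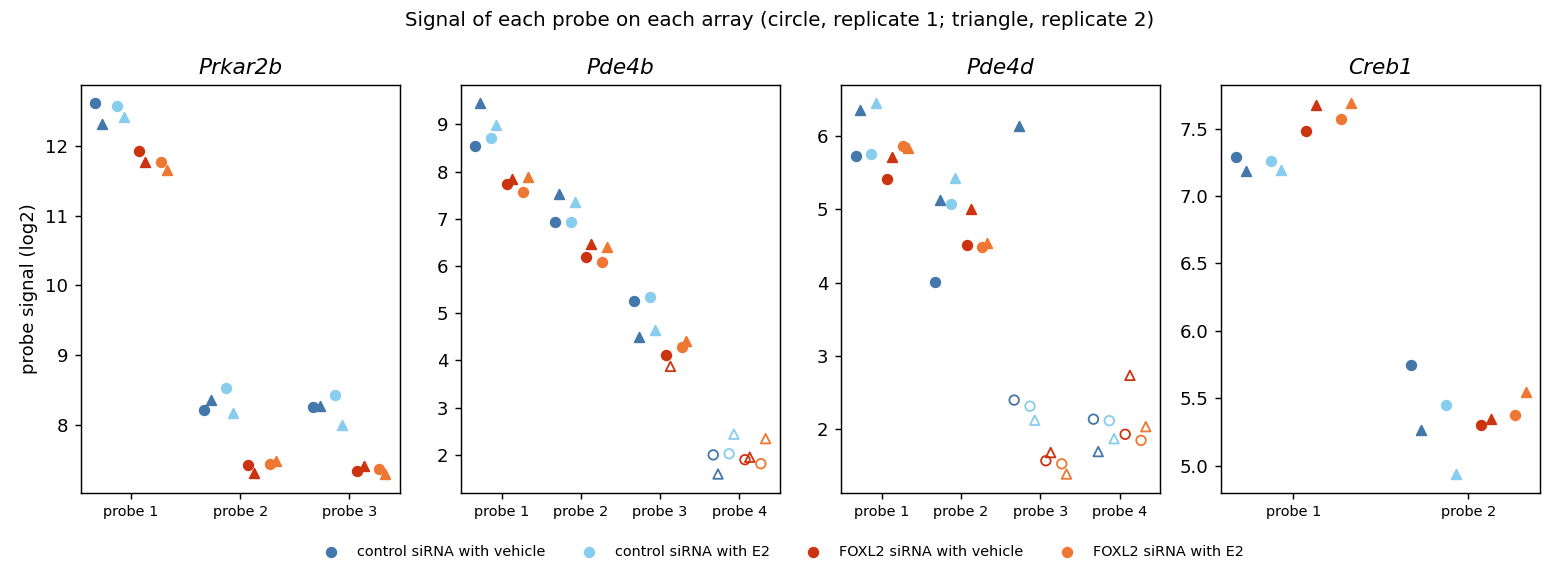
Level of each probe of Prkar2b, Pde4b, Pde4d and Creb1 on each array, as log2 scaled signal (vertical axes, each on its own scale), with probes numbered from the brightest (horizontal axis) and colours for the 4 groups. Filled points were well above background. The 3 Prkar2b probes and the 3 detected Pde4b probes drop together with FOXL2 siRNA, while 1 Pde4d probe was detected on 1 array alone, at 6.14.

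E2 gave no call among the tested genes. With control siRNA, 3 of all 15645 genes tested were called for E2, or 0.0192%, and with FOXL2 siRNA 2 were, or 0.0128%. None of the 6 tested genes was called with either siRNA, over both siRNAs, or for the difference between the E2 effects, where 0 and 38 of all genes were called (0% and 0.243%) in the limma fit. At an unadjusted p under 0.05, the comparison over both siRNAs held 360 genes. With the replicate number as a block, the counts over all genes rose to 182 with control siRNA, 96 with FOXL2 siRNA, 8 over both siRNAs and 332 for the difference, and still none of the 6 was called. The smallest unadjusted p of the 6 genes in any E2 comparison was 0.0798, for Prlr.

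With control siRNA, the E2 differences of the 6 genes lay between -0.12 for Pde4b and 0.028 for Prkar2b. For Prkar2b the 95% interval was -0.25 to 0.31, and for Pde4b it was -0.71 to 0.48. The Prkar1a difference was -0.010 (95% interval -0.28 to 0.26), that of Prlr 0.014 (-0.31 to 0.34) and that of Creb1 -0.076 (-0.44 to 0.29). For Pde4d the interval, -1.08 to 0.92, was the widest.

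With FOXL2 siRNA, the E2 differences lay between -0.28 for Prlr and 0.076 for Pde4d. The Prlr value had a 95% interval of -0.61 to 0.043. The difference between its E2 effects with the 2 siRNAs was -0.30 (95% interval -0.75 to 0.16, unadjusted p = 0.175). For Prkar2b the E2 difference was -0.12 (-0.40 to 0.16) and for Pde4b -0.045 (-0.64 to 0.55). The FOXL2 siRNA difference with E2 minus that with vehicle was -0.15 for Prkar2b (95% interval -0.54 to 0.25) and 0.072 for Pde4b (-0.77 to 0.92).

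**Figure D3:**
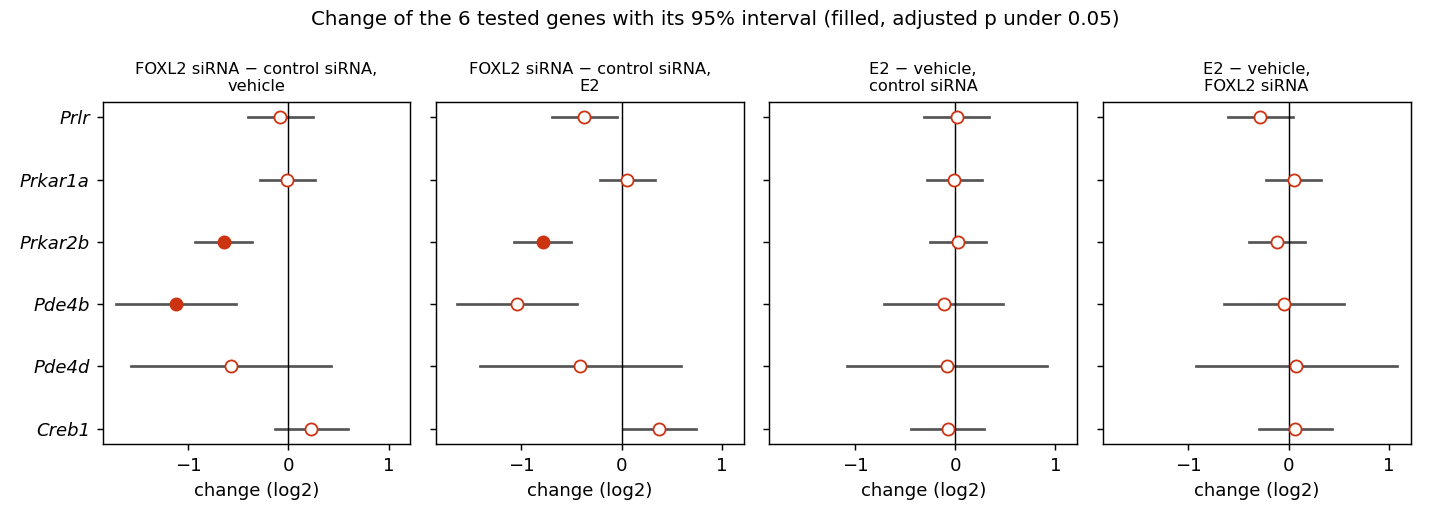
Change of the 6 tested genes on the log2 scale (horizontal axes) in 4 comparisons, with points for the limma estimate, lines for its 95% interval and filled points for an adjusted p under 0.05. The filled points are Prkar2b at -0.64 and -0.79 and Pde4b at -1.12, and the E2 panels on the right hold none.

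Examples of the sequence upstream of start sites are shown for the called genes, and for Prkar1a as the uncalled partner of Prkar2b. They were picked for the words they hold, so the contrast between them follows from that choice. RefSeq promoter windows (build GRCm38.p6) were found for 9 of 9 genes, 20 windows in all, and their 250 bases before the start site were searched on both strands. The words were the full cyclic AMP response element TGACGTCA, its part TGACG, which the full element contains, the forkhead word GTAAACA together with its variant GTAAATA, likewise ATAAACA together with its variant ATAAATA, and the GC box GGGCGG. Of 32851 such windows of all genes, 1.55% held the full element, 17.8% TGACG, 13.6% a forkhead word and 32.7% the GC box. Of the 20 windows of the 9 genes, 1 held the full element, 5 TGACG, 4 a forkhead word and 7 the GC box. Overlapping windows of Prkar1a share a TGACG, which is counted in each. Capitals mark every match, on either strand, and sequences read 5′ to 3′ on the strand of the gene.
Prkar2b, chr12:32061278-32061527, minus strand: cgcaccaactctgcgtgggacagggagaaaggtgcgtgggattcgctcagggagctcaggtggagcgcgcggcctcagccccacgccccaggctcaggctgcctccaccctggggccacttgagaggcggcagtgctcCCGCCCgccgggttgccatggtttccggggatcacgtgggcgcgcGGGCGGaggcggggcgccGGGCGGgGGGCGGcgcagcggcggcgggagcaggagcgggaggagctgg
Prkar1a, chr11:109650699-109650948, plus strand: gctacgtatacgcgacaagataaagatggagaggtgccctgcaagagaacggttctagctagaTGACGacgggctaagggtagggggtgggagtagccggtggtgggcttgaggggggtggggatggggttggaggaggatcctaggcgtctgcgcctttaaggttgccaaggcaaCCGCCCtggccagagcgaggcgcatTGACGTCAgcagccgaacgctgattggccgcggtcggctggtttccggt
Pde4b, first start site, chr4:102421305-102421554, plus strand: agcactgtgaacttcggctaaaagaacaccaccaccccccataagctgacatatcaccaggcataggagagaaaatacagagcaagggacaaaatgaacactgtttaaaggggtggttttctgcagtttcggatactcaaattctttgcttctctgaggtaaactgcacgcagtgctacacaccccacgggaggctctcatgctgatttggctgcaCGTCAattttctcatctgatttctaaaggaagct
Pde4b, second start site, chr4:102569810-102570059, plus strand: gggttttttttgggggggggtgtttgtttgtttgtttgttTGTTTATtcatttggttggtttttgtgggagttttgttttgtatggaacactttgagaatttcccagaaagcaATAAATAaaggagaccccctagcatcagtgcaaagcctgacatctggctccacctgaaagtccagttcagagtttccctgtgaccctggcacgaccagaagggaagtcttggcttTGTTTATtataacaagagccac

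Of the 2 Prkar2b windows, the one shown was 75.6% G and C and held 4 GC boxes, starting 112, 67, 49 and 42 bases before the start site, with no match to the other words, and the other window held no match at all. Of the 6 Prkar1a windows, the one shown held the full element 49 bases before the start site, the only full element among the 20 windows. GC boxes stood in 3 of these 6 windows, the one shown among them, and another was 80.4% G and C with 3 GC boxes. Of the 4 Pde4b windows, the first held TGACG on the reverse strand 34 bases before the start site. The second held 3 forkhead words, 210, 137 and 22 bases before the start site, and the other 2 held no match. Among the remaining genes, forkhead words stood in 2 of 3 Prlr windows and in the Pde4d window, and the Fshr window held none of the words. The Lhcgr window held 4 GC boxes, and the Creb1 and Adcyap1r1 windows held 1 each. A match describes the letters of the window and is not a binding site.

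The genes whose levels followed Prkar2b and Pde4b most closely over the 8 arrays were found among 14171 genes well above background on all of them. For Prkar2b they were Sash1 (Pearson's r = 0.991), Rsph9 (0.989) and Frem2 (0.988), and for Pde4b they were Klhl21 (0.989), Ptcd1 (0.988) and Phf2 (0.985). All points share the same 8 arrays, and 143 genes reached an r over 0.95 with Prkar2b and 135 with Pde4b, so these ranks set no gene clearly apart.

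Other genes of the pathway were taken from lists by role, 95 genes of which 77 passed the filter. Over both treatments, 20 of the 77 were called between siRNAs (26.0%, beside 12.6% of all genes), 7 higher and 13 lower with FOXL2 siRNA, with a median change of -0.021 beside -0.0026 for all genes. With vehicle 11 were called (14.3%, beside 6.53%) and with E2 8 were called (10.4%, beside 4.38%). The lists were chosen with earlier results of these data known, so these shares do not test the pathway as a whole. No gene of the lists was called for E2 without the replicate block. With it, 29 were called between siRNAs with vehicle, 21 with E2 and 30 over both treatments. The block called 2928, 2330 and 4327 of all 15645 genes in these comparisons. For E2 the block called 3 with control siRNA (Gpr3, Dusp1 and Stat5a), 2 with FOXL2 siRNA (Pde1b and Stat5a), 0 over both siRNAs and 7 for the difference (Pde1b, Dusp1, Sgk1, Star, Stat5a, Rapgef3 and Akap5), and these genes were named after their values were seen. Of all 15645 genes, it called 182, 96, 8 and 332 in the same order. Of the 20 calls over both treatments, 15 held without any single array, and the 5 that did not are named below as such. Under the other alternatives 6 of the 20 lost the call at least once, Adcy6, Akap12, Arrb1 and Ptgs2 among those 5 and also Crem and Pde3b.

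In the paragraphs by role that follow, changes and calls are over both treatments unless stated. Such a call need not hold with vehicle or with E2 alone. Upstream of cyclic AMP, the ligand genes Adcyap1 and Vip did not pass the filter. Of 3 other receptors coupled to the stimulatory G protein that could be tested, Adora2b, an adenosine receptor, rose by 1.51 (adjusted p = 0.00347). Ptger2, a prostaglandin E2 receptor, fell by 1.50 (adjusted p = 0.00738). Of 11 G protein and adenylyl cyclase genes, Adcy6 alone was called, at 0.32 (adjusted p = 0.0230), a call that some single arrays ended (adjusted p up to 0.0848).

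Among 5 genes of receptor desensitisation, the receptor kinase Grk6 fell by 0.50 (adjusted p = 0.00904) and the arrestin Arrb1 by 0.43 (adjusted p = 0.0359), the latter lost without single arrays (adjusted p up to 0.114).

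At the level of the kinase and its messenger, none of 7 other protein kinase A subunit and inhibitor genes was called. The largest difference in that group was -0.48 for Prkar2a, the other type II regulatory subunit (adjusted p = 0.0506). Among 8 anchoring proteins, Akap11 fell by 0.65 (adjusted p = 0.00373) and Akap12 rose by 1.31 (adjusted p = 0.0367), the latter lost without single arrays (adjusted p up to 0.118). Of 9 other phosphodiesterase genes, Pde3b fell by 0.98 (adjusted p = 0.00136) and Pde7a by 0.70 (adjusted p = 0.00259), and none was called higher. With probes averaged on the log2 scale Pde3b was at -0.51 and not called (adjusted p = 0.0582). The cyclic AMP exchange factor Rapgef3, or EPAC1, rose by 1.04 (adjusted p = 0.00519). With vehicle alone it rose by 1.52 (adjusted p = 0.00858), and with E2 alone it was not called.

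Beside Creb1, 10 partners and regulators of CREB were tested. Crem, a CREB relative with repressor forms, fell by 0.49 (adjusted p = 0.00791, or 0.0641 and not called with probes averaged on the log2 scale), and the kinase Sik1, which holds back CREB coactivators, rose by 0.86 (adjusted p = 0.0149), a call lost without single arrays (adjusted p up to 0.0614). None of the 6 genes of prolactin receptor signalling was called, and the largest difference there was 0.55 for Cish, a STAT5 target (adjusted p = 0.0533).

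Among 16 genes known to respond to cyclic AMP in granulosa cells, 6 were called lower over both treatments and 2 higher. The rest were not called. Of all genes, 6.18% were called lower and 6.39% higher in that comparison. The largest falls were those of Ereg, an EGF receptor ligand, by 2.28 (adjusted p = 0.0102), of Fos, by 1.41 (adjusted p = 0.000960), and of Ptgs2, the prostaglandin synthase, by 1.25 (adjusted p = 0.0215), the last lost without single arrays (adjusted p up to 0.0825). Has2, the hyaluronan synthase of the cumulus matrix, fell by 1.10 (adjusted p = 0.00465). Btc and Sgk1 also fell, and were called with E2 alone and not with vehicle alone. Cyp11a1, which begins steroid synthesis from cholesterol, rose by 0.89 (adjusted p = 0.000195). The phosphatase gene Dusp1 was called higher over both treatments and with vehicle alone, and was not called with E2 alone. Members of this list thus moved both ways. With vehicle alone, 2 of the 16 were called lower and 2 higher, and with E2 alone 3 lower and 1 higher.

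**Figure D4:**
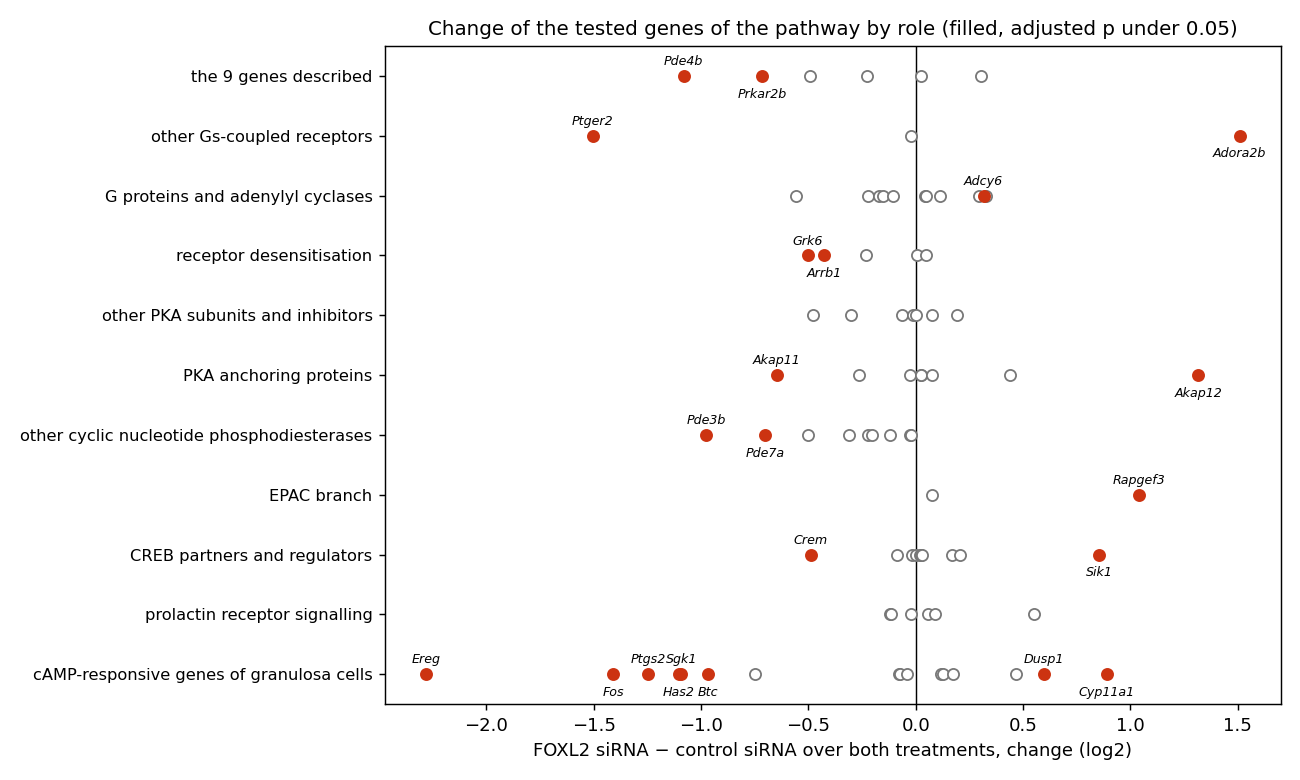
Change between siRNAs over both treatments on the log2 scale (horizontal axis) for each tested gene of the pathway, by role (vertical axis), with filled, named points for an adjusted p under 0.05. The filled points stand on both sides of 0, from Ereg at -2.28 to Adora2b at 1.51, and the rows of other protein kinase A subunits and of prolactin receptor signalling hold none.

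Marker genes moved with the siRNA labels as well. The summed linear signal of the 4 Sertoli genes was 2373 to 2405 for control siRNA in vehicle, 2723 to 3278 for control siRNA in E2, 5781 to 6416 for FOXL2 siRNA in vehicle and 4519 to 5648 for FOXL2 siRNA in E2, and 3 of the 4 were called higher over both treatments (Sox9, Sox8 and Dhh). The sum of the 10 granulosa genes was 94644 to 95153, 85313 to 88944, 100668 to 102943 and 96204 to 101799 in the same order, with Esr2, Fst and Gja1 called lower and Inhbb higher. This list includes Foxl2 itself. A linear sum weighs the brightest genes most and does not describe each marker. The sum of the 4 luteal genes was 117199 to 127229, 104568 to 107723, 60089 to 79915 and 65459 to 82936, with Hsd3b1 called lower and Ptgfr at background on all 8 arrays. The theca and interstitial sum of 6 genes was 2345 to 3825, 2126 to 2885, 2856 to 3907 and 4263 to 4933 in that order, and the endothelial sum of 5 genes was 1259 to 1825, 1137 to 1498, 1904 to 1965 and 1592 to 1699. The macrophage sum of 5 genes was 496 to 517, 474 to 482, 579 to 640 and 494 to 614. Of these 3 lists, only 3 theca and interstitial, 2 endothelial and 3 macrophage genes could be tested. None of them was called over both treatments, where 12.6% of all genes were. The part of these shifts in the changes of Prkar2b and Pde4b was not tested.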

How the data were processed

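RNA of 8 cultures was measured on one-colour Agilent arrays (50 ng of total RNA labelled with Cy3). The deposited scanner files hold spot intensity values from Feature Extraction 11.5.1.1, and the processed intensity used here is the authors' signal after background subtraction by that software. The deposited expression table holds log2 values that the authors scaled by 75th percentile. Apart from 1 constant per array, 98.7 to 98.9% of its rows came within 0.001 of the log2 of their averaged probe intensities. Its gene IDs named the rows and it served as an alternative.

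Of 62976 spots, the 3671 controls were dropped, with 42 non-uniform probes. The 55639 probes left were scaled to each array's 75th percentile (275 to 367 units) and averaged per Entrez ID on the linear scale, giving 24232 genes. No probe was saturated. Intensities carry no read depth. The 15645 genes with a median of at least 10 were fitted with limma 3.58.1 in R 4.3.3 (lmFit and eBayes with an intensity trend) as 4 group means over all 8 arrays, with 4 residual degrees of freedom, and 7 two-sided comparisons. Because the scanner files carry no mean signal, the normexp alternative used the median signal. The fit was tested on simulated data. Symbols and promoter sequences came from RefSeq tables of GRCm38.p6, while the arrays were designed on mm9. Python 3.11.15, pandas 2.3.3 and matplotlib 3.10.9 served for sequences and plots.

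The 9 genes and the lists were chosen with earlier results of these data known, and 1 gene of the lists is not reported here. Named genes were the 9, the called genes of the lists with values for up to 4 per role, the largest difference of each role without a call, the 3 closest genes to each called one, and Foxl2. Alternatives covered scaling, background, centring, filter, probes, spread, samples fitted, a replicate block, each array left out, and a rule of the study. The study used that rule for E2 targets and for nuclear receptor siRNA targets, not for FOXL2 siRNA. It asks for a difference of at least 1 above 2 times the sum of both SDs.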

Additional observations from a re-analysis of the deposited data

How the results depend on the processing

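The number of the 6 tested genes called over both treatments was 2 under every alternative that was run, and 0 in each E2 comparison and in the difference under every one run. With vehicle the count of 2 went to 1 with no filter, with normexp, with quantile normalization and with probes averaged on the log2 scale, an alternative chosen after seeing the data. It went to 0 with no intensity trend, with only the groups compared and by the study's rule for E2 targets. Leaving out 1 array gave 0 to 1 with vehicle, 0 to 2 with E2 and 2 to 2 over both. By the study's rule the 1 gene with E2 was Pde4b in place of Prkar2b. Under the named alternatives that ended its call with vehicle, Pde4b stood between -1.12 and -0.71 (adjusted p from 0.0533 to 0.109). Prkar2b lost its call with vehicle with no intensity trend and with only the groups compared (adjusted p = 0.0567 and 0.0615).

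Differences near 0 changed sign. Prkar1a over both treatments was -0.018 with quantile normalization and ranged from -0.041 to 0.085 with 1 array left out. With vehicle it was 0.21 with probes averaged on the log2 scale and ranged from -0.094 to 0.076, and with E2 it ranged from -0.073 to 0.18. With 1 array left out, Prlr with vehicle ranged from -0.16 to 0.0081 and Pde4d with vehicle from -1.21 to 0.067. Of 24 E2 values of the 6 genes, 18 changed sign in at least 1 alternative and none was called. The causes were not tested.

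Whether arrays of the same replicate number came from the same pool of mice is not stated. Their deviations from the group means correlated at 0.329 to 0.445. With the replicate number as a block, 3 genes were called with E2, Prkar2b, Pde4b (adjusted p = 0.000972) and Prlr (-0.37, adjusted p = 0.0416), and the other counts did not change. The block also raised the counts over all genes, to 2928 with vehicle, 2330 with E2 and 4327 over both treatments, and from 3, 2, 0 and 38 to 182, 96, 8 and 332 in the E2 comparisons and their difference.

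The arrays limit dim genes most. Fshr, Lhcgr and Adcyap1r1 stood at or near background, and Pde4d rested on few detected probes.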
